A study of Mus musculus with 18 samples.

Results

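The 10 ADAMTS genes described here, Adamts1, Adamts2, Adamts4, Adamts5, Adamts6, Adamts9, Adamts10, Adamts12, Adamts14 and Adamts16, were chosen by gene symbol from the 55450 genes of the expression table. The table holds 19 ADAMTS genes in all. ADAMTS proteins are secreted zinc metalloproteases that carry a disintegrin-like domain and thrombospondin type 1 repeats, and they cut proteins of the extracellular matrix. Some members cleave the large proteoglycans aggrecan and versican, others remove the amino-terminal propeptide of fibrillar procollagens so that collagen fibrils can form, and others bind or modify fibrillin microfibrils, which store latent TGF-β. Fibroblasts, which make most of the matrix of connective tissue, are a main source of several of these enzymes.

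RNA was sequenced from mouse embryonic fibroblasts (MEF) obtained from a cell repository, in 6 groups of 3 libraries. The cells were transfected with an empty pcDNA3 plasmid, with a Col1a1-miR-29b plasmid or with a CMV-miR-29b plasmid, each without TGF-β or with 20 ng/ml TGF-β for 24 h, added 6 h after transfection. Both miR-29b plasmids held human miR-29b-1 together with EGFP, under a rat Col1a1 promoter or under the CMV promoter, which is active in most cells, and both held mRFP1 under an SV40 promoter. The empty plasmid held none of these inserts, so the effect of the microRNA and that of the reporter sequences cannot be told apart. Plasmids were matched by moles, so that the longer Col1a1 plasmid was given at a greater mass of DNA, and transfection was transient. The sex, strain and passage of the cells are not given in the sources used here. In each Col1a1-miR-29b group, 1 library carries a letter in the table that no label carries, and it is called the unlettered library below. RNA was taken from whole cultures, so fewer cells that express a gene and less RNA per cell cannot be told apart.

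MicroRNAs of the miR-29 family lower the output of many matrix genes by pairing their seed, bases 2 to 8, with a matching stretch in the 3′ UTR of the mRNA. To show which of the 10 mRNAs could pair in this way, the 3′ UTR of the longest complete protein-coding transcript of each gene (GENCODE M21, GRCm38) was searched on the transcript strand for TGGTGCT (the full match to bases 2 to 8), for TGGTGCTA (the same with an A behind it, called an 8mer) and for GGTGCTA (bases 2 to 7 with the A, called a 7mer-A1). The mature mouse miR-29b-3p (RefSeq, GRCm38.p6, chr6:31063025-31063047, minus strand) is shown first, with its seed in capitals. The windows of 23 bases after it each hold a match, in capitals, at or next to their end. They show the strongest match of 6 genes, with 2 of the 3 8mers of Adamts12 and the first of the 4 matches of Adamts2, while the match of the barely detected Adamts16 is not shown.

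mmu-miR-29b-3p: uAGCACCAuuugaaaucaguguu

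Adamts6, chr13:104495681-104495703, plus strand, 8mer: aaaggacagttaactTGGTGCTA

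Adamts9, chr6:92773489-92773511, minus strand, 8mer: agaattgtgctgcctTGGTGCTA

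Adamts10, chr17:33553676-33553698, plus strand, 8mer: ggccgttccccatcaTGGTGCTA

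Adamts12, chr15:11347262-11347284, plus strand, 8mer: atccattcagcagaaTGGTGCTA

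Adamts12, chr15:11348898-11348920, plus strand, 8mer: atgtcttgagcttctTGGTGCTA

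Adamts2, chr11:50804952-50804974, plus strand, full match to bases 2 to 8: tgcagtttcaaaaccTGGTGCTc

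Adamts5, chr16:85857346-85857368, minus strand, 7mer-A1: cgttatcgtaacagaGGTGCTAa

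Adamts12 and Adamts2 held 4 matches each. In Adamts12, 3 were of the 8mer kind and 1 a further match to bases 2 to 8, in 3554 bases of 3′ UTR, and a pair of the 8mers began 15 bases apart. In Adamts2 all 4 were matches to bases 2 to 8 without the A, in 3544 bases. Adamts16 held 1 in 1050 bases, and Adamts9 held a 7mer-A1 beside its 8mer. In Adamts5 the only match was the 7mer-A1, in a 3′ UTR of 6437 bases. Adamts1, Adamts4 and Adamts14 held no match of the 3 kinds in 1574, 1459 and 1366 bases. Among all genes tested that have an annotated 3′ UTR, 14.6% held at least 1 match to bases 2 to 8. A match is a description of the sequence and says nothing about binding in these cells.

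The libraries held between 65898017 and 80332633 counts, with a median of 74155860. Poly(A) RNA holds few microRNA precursors, and the counts of the endogenous-gene entry Mir29b-1 were 0 in all empty vector libraries. In the Col1a1-miR-29b libraries they were 0 to 1 without and 2 to 6 with TGF-β. In the CMV-miR-29b libraries they were 110 to 309 without and 203 to 293 with TGF-β. Of the 6 genes used to check the response to TGF-β, 5 rose in empty vector cells, 6 in CMV-miR-29b cells and 5 in Col1a1-miR-29b cells. The fibroblast markers Col1a1, Col1a2, Fn1 and Vim were abundant, while Thy1 and Lum, which also mark fibroblasts, were at 8 counts or fewer in every library. Summed over its 5 markers, the epithelial list stayed at or under 1.09 CPM (counts divided by library size, with TMM factors, and multiplied by 1000000) in every library, the endothelial list at or under 3.03, and the blood and macrophage list between 17.6 and 23.3. Cd68 (8.41 to 13.1 CPM) and Cd14 (5.88 to 10.3 CPM) made up nearly all of that last sum, while Adgre1 (0 to 4 counts) and Ptprc (0 to 25 counts) were at or near 0. The striated muscle list lay between 6.18 and 8.48 without TGF-β and between 55.5 and 80.4 with it, almost wholly through Tnnt2, while Myod1, Myog and Actc1 were near 0. Whether other cells take part in the results below was not tested.

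Levels are compared between genes only in FPKM, a deposited unit that divides fragments by transcript length and by sequencing depth. In untreated empty vector cells, the most abundant member was Adamts1 at 19.6 ± 1.07 FPKM (SD, n = 3), followed by Adamts4 at 12.4 ± 1.12. Adamts5 at 3.15 ± 0.221 FPKM and Adamts10 at 2.79 ± 0.401 overlapped. Below them came Adamts14 at 2.25 ± 0.0223, Adamts9 at 1.68 ± 0.0456, Adamts2 at 1.06 ± 0.0325, Adamts6 at 0.490 ± 0.126 and Adamts12 at 0.102 ± 0.00841 FPKM, with no overlap between neighbours. Adamts16 was listed at 0 in every untreated library.

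After TGF-β this order was different. Adamts1 at 15.3 ± 0.968 and Adamts4 at 14.7 ± 2.47 FPKM overlapped. Adamts5 moved from the third place to the eighth, at 1.14 ± 0.0587 FPKM, where it overlapped Adamts9 at 1.19 ± 0.0377 and Adamts2 at 1.19 ± 0.0377. Adamts6 stood at 1.40 ± 0.0945 FPKM, above all 3 of them. The summed level of the 10 genes was 43.6 ± 1.60 FPKM without and 40.3 ± 3.16 FPKM with TGF-β in empty vector cells, so that the total overlapped while its make-up differed. Adamts5 made up 7.21 ± 0.293% of that sum without TGF-β and 2.82 ± 0.210% with it, and Adamts4 made up 28.5 ± 2.14% and 36.3 ± 3.24%. In all 16 libraries with usable FPKM, Adamts1 and Adamts4 together held between 72.6% and 81.2% of the sum.

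**Figure D1:**
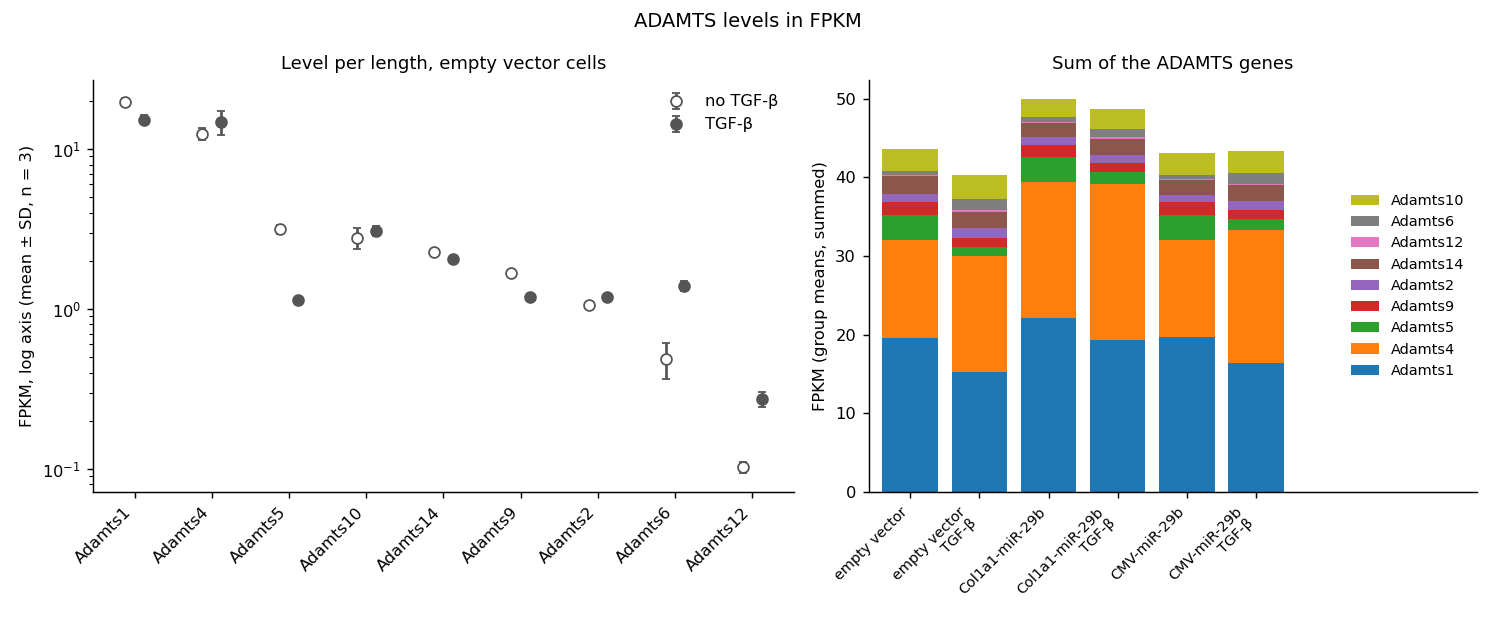
Left, FPKM of 9 ADAMTS genes in empty vector cells on a log axis, as mean ± SD of 3 libraries, without TGF-β (open) and with TGF-β (filled). Right, group means of the same genes stacked for the 6 groups (2 libraries in each Col1a1-miR-29b group, 3 in the others); Adamts16 is too low to draw. Adamts1 and Adamts4 fill most of every bar, and the Adamts5 segment is thinner in each TGF-β bar.

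The first question was how TGF-β, a cytokine that drives fibroblasts to make matrix, changed the 10 genes under each plasmid. In empty vector cells TGF-β lowered Adamts5, Adamts9 and Adamts1 and raised Adamts6 and Adamts12. Adamts5, Adamts9 and Adamts12 changed in the same direction under all 3 plasmids. Changes were tested on counts with edgeR's quasi-likelihood test in 1 fit of all 18 libraries, with Benjamini-Hochberg adjustment over 21161 genes and a threshold of 0.05. With this rule 5 of the 10 genes passed in empty vector cells, 2 higher and 3 lower, where 5.88% of all genes tested passed (3.88% higher and 2.01% lower). In Col1a1-miR-29b cells 3 passed, 1 higher and 2 lower, against 4.32% of all genes (3.0% higher and 1.32% lower). In CMV-miR-29b cells 4 passed, 2 higher and 2 lower, against 4.95% (3.08% higher and 1.87% lower). The 3 genes that passed in the same direction under all 3 plasmids compare with 2.63% of all genes (1 higher against 1.95%, and 2 lower against 0.685%). All 10 genes passed the filter on low counts, but Adamts16 passed it only through treated libraries and is described by its counts alone. Without the 2 unlettered libraries only Adamts5 passed in Col1a1-miR-29b cells (1 of 10, against 2.07% of all genes in that fit), with adjusted p = 0.0512 for Adamts9 and 0.0815 for Adamts12. Over the other 9 genes the median log2 fold change was 0.18 under the empty plasmid, 0.17 under Col1a1-miR-29b and 0.08 under CMV-miR-29b, where the medians over all genes tested were 0.0023, −0.0056 and −0.0025.

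**Figure D2:**
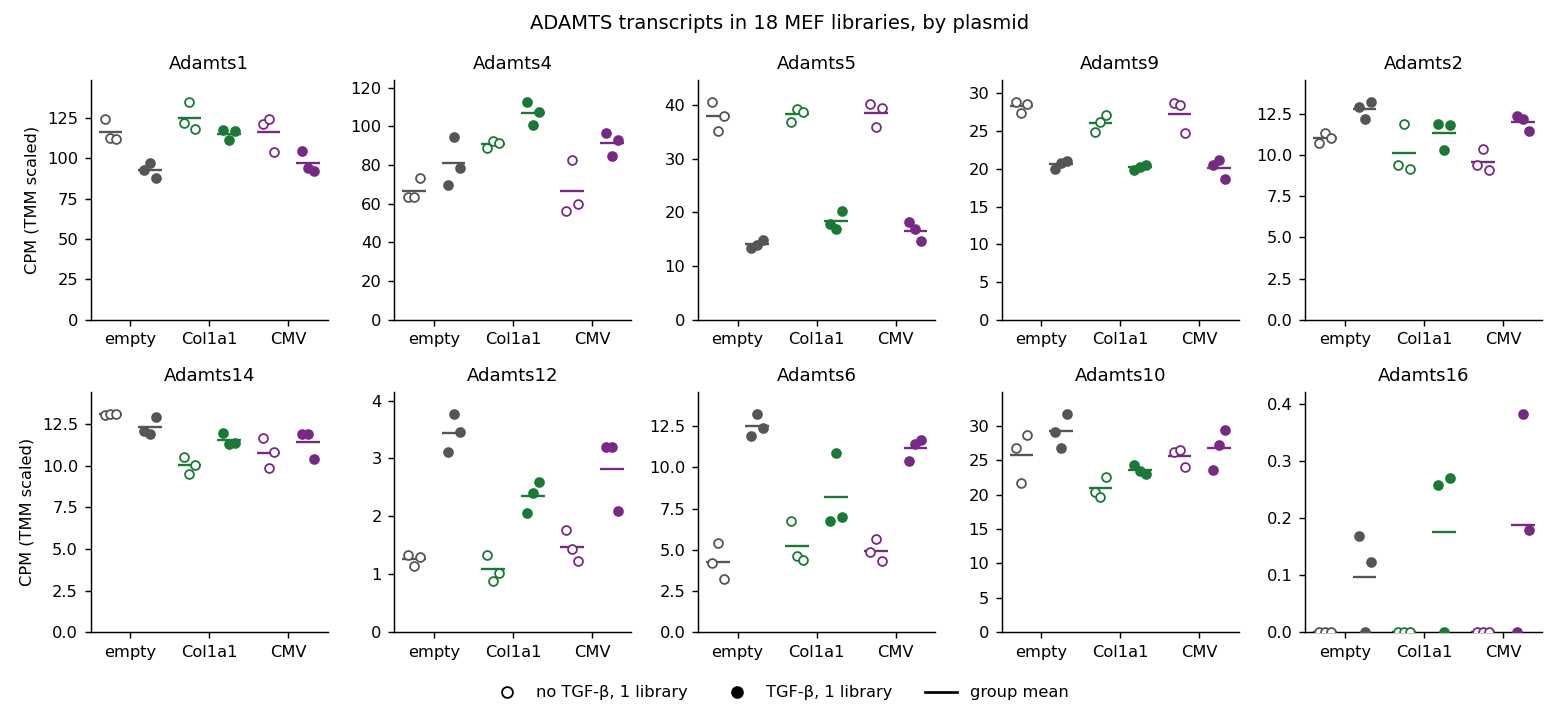
Counts scaled to library size (CPM, with TMM factors) of the 10 ADAMTS genes in all 18 libraries, 1 point a library, open without and filled with TGF-β, with a line at each group mean, for the empty, Col1a1-miR-29b and CMV-miR-29b plasmids. Adamts5 and Adamts9 lie lower in every treated library, Adamts12 lies higher, and Adamts16 has points above 0 only with TGF-β.

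Of the proteases that cleave aggrecan and versican, Adamts5, the main aggrecanase of mouse cartilage, changed most. It read 40.6, 35.1 and 38.0 CPM in the untreated empty vector libraries and 13.4, 13.9 and 14.8 in the treated ones. The Col1a1-miR-29b libraries read 36.8, 39.3 and 38.7 CPM without and 17.9, 17.0 and 20.2 with TGF-β. With the CMV plasmid the values were 40.2, 36.0 and 39.4 without and 18.1, 16.8 and 14.6 CPM with TGF-β. Every treated library was below every untreated library, whichever plasmid it carried. The log2 fold change was −1.43 (SE 0.09, edgeR adjusted p = 5.36e-08) with the empty plasmid, −1.06 (SE 0.09, adjusted p = 1.61e-06) with Col1a1-miR-29b and −1.22 (SE 0.09, adjusted p = 3e-07) with CMV-miR-29b. Ordered by size among the genes called lower, this fall stood at place 32 of 425, 42 of 280 and 41 of 395.

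Adamts9, which also cleaves versican and aggrecan, fell by less and with little spread. It read 28.9, 27.5 and 28.6 CPM in untreated and 19.99, 20.77 and 21.003 CPM in treated empty vector cells. Under Col1a1-miR-29b the values were 24.8, 26.2 and 27.1 without and 19.9, 20.2 and 20.5 CPM with TGF-β. CMV-miR-29b cells gave 28.7, 28.4 and 24.8 without and 20.5, 21.1 and 18.7 CPM with TGF-β. Again no treated library reached an untreated one. The log2 fold changes were −0.46 (SE 0.07, adjusted p = 0.000389), −0.37 (SE 0.07, adjusted p = 0.00368) and −0.44 (SE 0.07, adjusted p = 0.000678) in the same order of plasmids. Exons of Adamts9 share 9.18% of their bases with A730049H05Rik and 2.82% with Gm15737, both on the opposite strand, and whether the counting used strand is not given in the sources used here.

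Adamts1, a versican-cleaving protease that lies 53059 bases from Adamts5 on chromosome 16, gave a smaller fall. It read 124, 113 and 112 CPM in untreated and 93.0, 97.2 and 87.6 CPM in treated empty vector cells, without overlap. The log2 fold change was −0.33 (SE 0.07, adjusted p = 0.0142). It was −0.26 (SE 0.07, adjusted p = 0.0547) with CMV-miR-29b and −0.12 (SE 0.07, adjusted p = 0.563) with Col1a1-miR-29b, neither past the threshold, though in CMV-miR-29b cells it was called without untreated replicate e (adjusted p = 0.0122) or treated replicate c (adjusted p = 0.0427), and with DESeq2 (adjusted p = 0.0212), the filter of 10 counts in every library (0.0400), the replicate block (0.0401), length and GC offsets (0.0325, and 0.0321 with the block) and counts divided by 4 (0.0478). The call in empty vector cells was lost without replicate c of the untreated group (adjusted p = 0.0654) and without replicate e of the treated group (adjusted p = 0.0725).

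Adamts4, an aggrecanase like Adamts5, had the opposite sign. It read 63.7, 63.3 and 73.2 CPM in untreated and 69.6, 94.4 and 78.7 CPM in treated empty vector cells, and the groups overlapped. In CMV-miR-29b cells the values were 56.3, 82.9 and 60.0 without and 96.5, 84.5 and 93.1 CPM with TGF-β, where the treated libraries were all higher. The treated libraries were also all higher in Col1a1-miR-29b cells, at 89.0 to 92.5 CPM without and 101 to 113 CPM with TGF-β. The log2 fold changes were 0.28 (SE 0.13, adjusted p = 0.277) with the empty plasmid, 0.23 (SE 0.13, adjusted p = 0.458) with Col1a1-miR-29b, and 0.46 (SE 0.13, adjusted p = 0.0504) with CMV-miR-29b, none past the threshold. The last of these lay at the threshold, since Adamts4 was called there with DESeq2 (adjusted p = 0.0105), the filter of 10 counts in every library (0.0443), length and GC offsets (0.0476) and counts divided by 4 (0.0420). Without replicate d of the untreated CMV-miR-29b group, Adamts4 was called in these cells too (log2 fold change 0.65, adjusted p = 0.00204).

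No procollagen N-proteinase passed the threshold with TGF-β under any plasmid. Adamts2, which removes the amino-terminal propeptide of types I, II and III procollagen, had log2 fold changes of 0.21 (SE 0.10, adjusted p = 0.302), 0.16 (SE 0.10, adjusted p = 0.549) and 0.32 (SE 0.10, adjusted p = 0.0914) with the empty plasmid, Col1a1-miR-29b and CMV-miR-29b. DESeq2 called the rise of Adamts2 in CMV-miR-29b cells (log2 fold change 0.32, adjusted p = 0.0372). Its values ran from 9.06 to 11.9 CPM over the 9 untreated libraries and from 10.3 to 13.2 CPM over the 9 treated ones. Adamts14, a close relative with the same activity, stayed between 9.54 and 13.1 CPM in all libraries. It read 13.0, 13.1 and 13.1 CPM in untreated and 12.1, 11.9 and 12.9 CPM in treated empty vector cells, while in Col1a1-miR-29b cells it read 10.6, 9.54 and 10.1 without and 11.9, 11.3 and 11.4 CPM with TGF-β. The log2 fold changes of Adamts14 were thus −0.09 (SE 0.08, adjusted p = 0.686) and 0.20 (SE 0.08, adjusted p = 0.246), and their difference of 0.29 (SE 0.11) had an adjusted p of 1 in the edgeR fit. CMV-miR-29b cells had 11.7, 9.87 and 10.8 CPM of Adamts14 without and 11.9, 11.9 and 10.4 with TGF-β, which overlapped (log2 fold change 0.08, SE 0.08, adjusted p = 0.759). The substrates of these enzymes behaved otherwise: all 6 of 6 procollagen genes listed rose with TGF-β under each plasmid. Col1a2, a chain of type I collagen, rose most in empty vector cells, from 605 ± 46.8 to 1686 ± 191 CPM (SD, n = 3), with a log2 fold change of 1.48 (SE 0.10, edgeR adjusted p = 8.2e-08).

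Adamts12, which cleaves cartilage oligomeric matrix protein, was low but rose in all cells. It read 1.34, 1.14 and 1.29 CPM (91 to 107 counts) in untreated and 3.10, 3.77 and 3.46 CPM (221 to 293 counts) in treated empty vector cells. Col1a1-miR-29b cells gave 1.33, 0.892 and 1.03 CPM without and 2.06, 2.41 and 2.60 CPM with TGF-β, and CMV-miR-29b cells gave 1.77, 1.43 and 1.23 without and 3.19, 3.20 and 2.09 CPM with TGF-β. No treated library overlapped an untreated one. The log2 fold changes were 1.45 (SE 0.21, adjusted p = 0.000289), 1.12 (SE 0.21, adjusted p = 0.00392) and 0.93 (SE 0.20, adjusted p = 0.0118). Among genes called higher, they stood at place 112 of 820, 132 of 634 and 189 of 652. The calls in Col1a1-miR-29b and in CMV-miR-29b cells were each lost under 6 of 20 alternative fits. In CMV-miR-29b cells these included the fits without untreated replicate e (adjusted p = 0.0662), treated replicate c (adjusted p = 0.0585) or treated replicate d (adjusted p = 0.0648). Adamts7, which is not among the 10 but cleaves the same substrate, rose too (log2 fold change 1.08, SE 0.11, adjusted p = 7.76e-06, empty plasmid).

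Adamts6 and Adamts10 are a pair of related proteases linked to fibrillin microfibrils and cell adhesion, and they differed in their response. Adamts6 read 4.22, 5.43 and 3.21 CPM in untreated and 11.9, 13.2 and 12.4 CPM in treated empty vector cells. In CMV-miR-29b cells it read 4.88, 5.63 and 4.31 without and 10.4, 11.4 and 11.7 CPM with TGF-β. These gave log2 fold changes of 1.54 (SE 0.22, adjusted p = 0.000272) and 1.17 (SE 0.21, adjusted p = 0.00321), and the groups were far apart. Col1a1-miR-29b cells read 6.74, 4.63 and 4.40 CPM without and 6.77, 10.9 and 6.96 CPM with TGF-β, so that the highest untreated library came close to the lowest treated one. There the log2 fold change was 0.64 (SE 0.21, adjusted p = 0.128), which DESeq2 called (adjusted p = 0.0454). Adamts10 stayed between 19.7 and 31.8 CPM over all 18 libraries, with log2 fold changes of 0.18 (SE 0.10, adjusted p = 0.417), 0.17 (SE 0.10, adjusted p = 0.523) and 0.06 (SE 0.10, adjusted p = 0.873).

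Adamts16, a protease known from kidney and gonad, had 0 counts in all 9 untreated libraries, where a count of 0 allows up to 3 counts. With TGF-β it had 12, 0 and 9 counts in empty vector cells, 0, 25 and 13 in CMV-miR-29b cells and 19, 0 and 19 in Col1a1-miR-29b cells. Each treated group thus held 1 library with none. At these counts no fold or test is given.

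**Figure D3:**
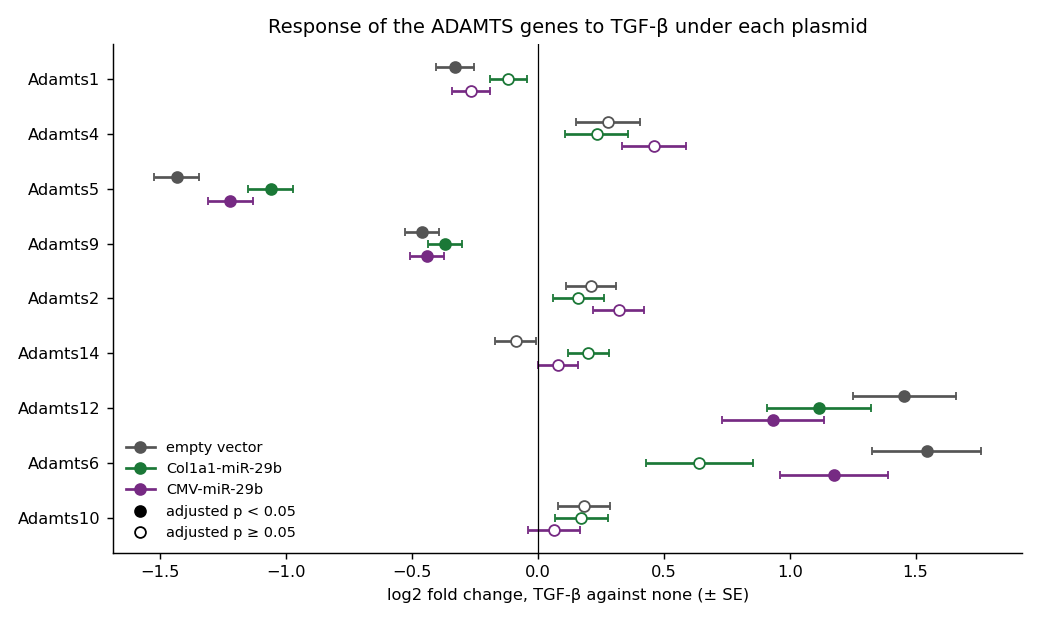
log2 fold change of 9 ADAMTS genes, TGF-β against none (horizontal axis, ± SE from the edgeR fit), under the empty (grey), Col1a1-miR-29b (green) and CMV-miR-29b (purple) plasmids, filled where the adjusted p is below 0.05. Adamts5 and Adamts9 lie left of 0 and Adamts12 right of 0 under every plasmid, and the Adamts6 point of Col1a1-miR-29b cells is open at 0.64.

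Because TGF-β was tested in 3 separate sets of libraries, the response under each miR-29b plasmid could be set against that in empty vector cells by an interaction term. None of the 10 genes passed in the contrast with Col1a1-miR-29b (0.0% of all genes tested passed) or with CMV-miR-29b (0.0%). At an unadjusted p below 0.05, 3 of the 10 genes and 961 of all genes passed for Col1a1-miR-29b, and 0 and 1129 for CMV-miR-29b. With DESeq2, 0 of the 10 genes passed in either contrast, with 27 and 19 genes in all. The largest difference was that of Adamts6, whose response in Col1a1-miR-29b cells was lower by a log2 fold of −0.90 (SE 0.30, adjusted p = 1). For Adamts5 the difference was 0.37 (SE 0.12, adjusted p = 1), and for Adamts12 −0.34 (SE 0.29, adjusted p = 1). In CMV-miR-29b cells the differences of Adamts6, Adamts5 and Adamts12 were −0.37 (SE 0.30), 0.21 (SE 0.12) and −0.52 (SE 0.29). Of the other members in Col1a1-miR-29b cells, the differences were 0.29 for Adamts14, 0.21 for Adamts1, 0.09 for Adamts9, −0.0099 for Adamts10, −0.05 for Adamts4 and −0.05 for Adamts2. In CMV-miR-29b cells they were 0.17 for Adamts14, 0.06 for Adamts1, 0.02 for Adamts9, −0.12 for Adamts10, 0.18 for Adamts4 and 0.11 for Adamts2. With standard errors of this size, a miss of the threshold does not show equal responses.

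The second question was what each miR-29b plasmid did to the 10 genes at fixed treatment. With TGF-β, Col1a1-miR-29b cells had more Adamts1, Adamts4 and Adamts5 transcript than empty vector cells. Without TGF-β, they had more Adamts4 and less Adamts14. With CMV-miR-29b no member passed at either treatment. The 3 genes that were higher in treated Col1a1-miR-29b cells, with none lower, compare with 12.9% of all genes tested (5.31% higher and 7.63% lower). Without TGF-β, 1 was higher and 1 lower, against 6.27% (2.57% higher and 3.7% lower). Without the unlettered libraries the counts were 1 with TGF-β, against 7.59% of all genes in that fit, and 0 without, against 1.82%. For CMV-miR-29b, 0 of the 10 passed with TGF-β (0.00945% of all genes) and 0 without (0.00473%). At an unadjusted p below 0.05 this count was 1 of 10 in each, beside 2531 and 1156 of all genes, and with DESeq2 it was 0 of 10 in each, beside 264 and 43 of all genes. Both miR-29b plasmids were set against the same empty vector libraries, so their differences are not independent. The log2 differences for CMV-miR-29b with TGF-β were 0.24 for Adamts5, 0.17 for Adamts4, 0.07 for Adamts1, −0.04 for Adamts9, −0.09 for Adamts2, −0.11 for Adamts14, −0.13 for Adamts10, −0.16 for Adamts6 and −0.29 for Adamts12. Without TGF-β they were 0.23 for Adamts12, 0.20 for Adamts6, 0.02 for Adamts5, 0.0033 for Adamts1, −0.0065 for Adamts4, −0.0094 for Adamts10, −0.05 for Adamts9, −0.20 for Adamts2 and −0.28 for Adamts14.

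Of the proteoglycan-cleaving proteases, Adamts1 read 118, 111 and 117 CPM in the treated Col1a1-miR-29b libraries, all above the 87.6 to 97.2 CPM of treated empty vector cells. The log2 fold change was 0.32 (SE 0.07, adjusted p = 0.0117). The call was lost under 3 of 20 alternatives, among them the fit without replicate e of treated empty vector cells (adjusted p = 0.0648). Adamts5 differed by 0.39 (SE 0.09, adjusted p = 0.00982) with no overlap, from the values given above. Without TGF-β, Adamts5 differed by 0.01 (SE 0.09, adjusted p = 0.96). The call of Adamts5 with TGF-β was lost under 8 of 20 alternatives. Among them were the fits without replicate c of treated empty vector cells (adjusted p = 0.0511) and without the unlettered library of treated Col1a1-miR-29b cells (adjusted p = 0.0556).

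Adamts4 was higher in Col1a1-miR-29b cells at both treatments. It read 89.0, 92.5 and 91.4 CPM without and 113, 101 and 107 CPM with TGF-β, above every empty vector library of the same treatment. The corresponding log2 fold changes were 0.45 (SE 0.13, adjusted p = 0.0497) and 0.40 (SE 0.13, adjusted p = 0.0497). Both calls sit at the threshold: each was lost under 14 of 20 alternatives. With TGF-β, leaving out any single library except replicate d of empty vector cells ended the call (adjusted p from 0.0699 to 0.214), and without TGF-β leaving out any of the 6 libraries did (0.0579 to 0.165).

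The level of Adamts14 was lower in untreated Col1a1-miR-29b cells than in empty vector cells (log2 fold change −0.38, SE 0.08, adjusted p = 0.0141), with the library values given above and no overlap. This call was lost under 9 of 20 alternatives. Among them were the fit without replicate d of untreated Col1a1-miR-29b cells (adjusted p = 0.0603) and that with length and GC content offset (log2 fold change −0.27, adjusted p = 0.0888). With TGF-β the difference was −0.09 (SE 0.08, adjusted p = 0.536). In CMV-miR-29b cells it was −0.28 (SE 0.08, adjusted p = 0.755) without TGF-β.

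Adamts6, Adamts12 and Adamts10 read lower in treated Col1a1-miR-29b cells, and none passed the threshold. Their log2 fold changes were −0.61 (SE 0.21, adjusted p = 0.0736), −0.55 (SE 0.20, adjusted p = 0.0892) and −0.31 (SE 0.10, adjusted p = 0.0633). In each of these genes all 3 Col1a1-miR-29b libraries lay below all 3 empty vector libraries. Adamts6 was called without replicate d of treated Col1a1-miR-29b cells (log2 fold change −0.87, adjusted p = 0.0195), Adamts10 without replicate d of treated empty vector cells (−0.37, adjusted p = 0.0395), and DESeq2 called both (adjusted p = 0.0269 and 0.0278). Without TGF-β the log2 fold change of Adamts10 was −0.30 (SE 0.10, adjusted p = 0.1), and it was called without replicate d of untreated empty vector cells (adjusted p = 0.0375) and with DESeq2 (adjusted p = 0.0408). The remaining differences of Col1a1-miR-29b cells did not pass. With TGF-β they were −0.17 for Adamts2 and −0.03 for Adamts9, and without it 0.29 for Adamts6, 0.10 for Adamts1, −0.12 for Adamts2, −0.12 for Adamts9 and −0.21 for Adamts12. Adamts7 passed with TGF-β, with a log2 fold change of −0.79 (SE 0.11, adjusted p = 0.000642), from 12.7 ± 0.889 to 7.37 ± 0.823 CPM (SD, n = 3).

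Set against the sequences shown at the start, the 5 genes at a measurable level whose 3′ UTR holds a match to bases 2 to 8 (Adamts2, Adamts6, Adamts9, Adamts10 and Adamts12) all had log2 fold changes below 0 with TGF-β under both miR-29b plasmids. Their medians were −0.31 for Col1a1-miR-29b and −0.13 for CMV-miR-29b. None of the 5 passed the threshold there, and some lay within 1 SE of 0. With Col1a1-miR-29b this was Adamts9, at −0.03 (SE 0.07). With CMV-miR-29b these were Adamts9 at −0.04 (SE 0.07), Adamts2 at −0.09 (SE 0.10) and Adamts6 at −0.16 (SE 0.21). Of the 3 genes with no match, 1 was below 0 under each plasmid, with medians of 0.32 and 0.07. Over all genes tested, 59.1% of the 2099 with such a match were below 0 with Col1a1-miR-29b and TGF-β, against 50.6% of the 11787 with none, with medians of −0.05 and −0.0040. With CMV-miR-29b and TGF-β these shares were 62.6% and 53.3%, with medians of −0.05 and −0.01. Without TGF-β, 4 of the 5 genes were below 0 for Col1a1-miR-29b and 3 of the 5 for CMV-miR-29b, with medians of −0.12 and −0.0094. Of the 3 genes with no match, 1 and 2 were below 0 there, with medians of 0.10 and −0.0065, so that for CMV-miR-29b without TGF-β the medians of both kinds of member were close to each other. Over all genes without TGF-β, 57.6% with and 51.3% without a match were below 0 for Col1a1-miR-29b, and 60.9% and 49.2% for CMV-miR-29b. The values describe 5 and 3 genes, share the empty vector libraries, and were not tested. Adamts5, whose only match was not one to bases 2 to 8, is in neither class. With TGF-β it lay above 0, at 0.39 for Col1a1-miR-29b, which passed the threshold, and at 0.24 for CMV-miR-29b, which did not. Genes with a match also had longer 3′ UTRs, with a median of 2401 bases against 883.

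**Figure D4:**
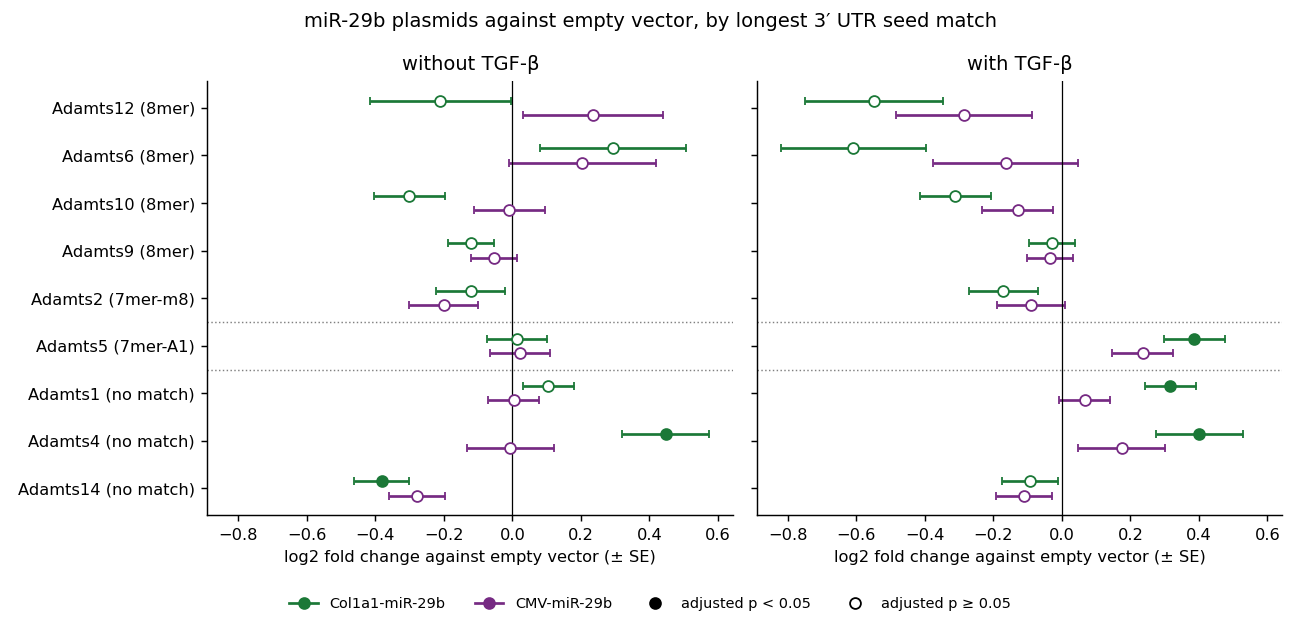
log2 fold change of 9 ADAMTS genes against empty vector cells (horizontal axes, ± SE from the edgeR fit), without TGF-β (left) and with TGF-β (right), for Col1a1-miR-29b (green) and CMV-miR-29b (purple), ordered by the strongest seed match in the 3′ UTR, with dotted lines between the match classes and filled points where the adjusted p is below 0.05. With TGF-β all points above the upper dotted line lie left of 0, while Adamts5, Adamts1 and Adamts4 lie right of it. Adamts14, which holds no match, also lies left of 0 with TGF-β under both miR-29b plasmids.

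Other genes moved with the Col1a1-miR-29b plasmid. Of 10 interferon response genes, 7 were higher than in empty vector cells at each treatment, against 5.31% of all genes with and 2.57% without TGF-β. With CMV-miR-29b 0 of 10 were called, where 2 of all 21161 genes passed with TGF-β and 1 without. The summed level of the 10 interferon response genes lay between 1655 and 1763 CPM in untreated empty vector, 2470 and 2579 in untreated Col1a1-miR-29b and 1760 and 2076 in untreated CMV-miR-29b cells. With TGF-β the ranges were 1430 to 1562, 2150 to 2408 and 1483 to 1552 CPM. The fibroblast list was lower at the same time. In treated Col1a1-miR-29b cells 6 of its 8 tested genes were called lower, against 7.63% of all genes. With CMV-miR-29b 0 genes of the fibroblast list were called, where 0.00945% of all genes passed with TGF-β and 0.00473% without. The summed level of the list was lower there too. With TGF-β this sum lay between 6648 and 7644 CPM in empty vector, 5047 and 5180 in Col1a1-miR-29b and 5596 and 6209 in CMV-miR-29b cells. Without TGF-β the ranges were 4079 to 4496, 3127 to 3511 and 3527 to 4072 CPM. The part of either in the levels of Adamts1, Adamts4 and Adamts5 was not tested.

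When the miR-29b plasmids were compared with each other, 0 of the 10 genes passed with TGF-β (1.93% of all genes tested) and 0 without (1.81%). At an unadjusted p below 0.05 the counts were 1 and 3 of the 10 genes, beside 3305 and 3478 of all genes, and with DESeq2 they were 1 and 1, beside 1091 and 1179 of all genes. The nearest to the threshold was Adamts4 without TGF-β, which was lower in CMV-miR-29b cells by a log2 fold of −0.45 (SE 0.13, adjusted p = 0.0813). That difference passed when replicate d of the untreated CMV-miR-29b group was left out (log2 fold change −0.64, adjusted p = 0.0125). It also passed with DESeq2 (adjusted p = 0.0165) and with length and GC offsets (0.0466). With TGF-β, Adamts1 was lower by −0.25 (SE 0.07, adjusted p = 0.102), which DESeq2 called (adjusted p = 0.0419). The other members with TGF-β were at 0.44 for Adamts6, 0.26 for Adamts12, 0.18 for Adamts10, 0.08 for Adamts2, −0.0076 for Adamts9, −0.02 for Adamts14, −0.15 for Adamts5 and −0.23 for Adamts4. Without TGF-β they were at 0.45 for Adamts12, 0.29 for Adamts10, 0.10 for Adamts14, 0.07 for Adamts9, 0.01 for Adamts5, −0.08 for Adamts2, −0.09 for Adamts6 and −0.10 for Adamts1.

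The partners of these enzymes were taken from lists of their substrates and regulators. In the list of inhibitors, activating proteases and clearance receptors, 12 of 16 genes could be tested. Of these, 5 rose and 1 fell with TGF-β in empty vector cells, against 3.88% and 2.01% of all genes. The list also held genes of other kinds, among them Bmp1, counted among those that rose, and Pcolce, the gene that fell. Timp3, the main tissue inhibitor of the aggrecanases, rose from 74.1 ± 3.45 to 184 ± 11.0 CPM (SD, n = 3), a log2 fold change of 1.31 (SE 0.06, edgeR adjusted p = 3.97e-09), and by 1.20 with Col1a1-miR-29b and 1.31 in CMV-miR-29b cells. Lrp1, an endocytic receptor that clears several ADAMTS proteases, rose by 0.79 (SE 0.09, adjusted p = 2.96e-05) in empty vector cells, and Timp1 rose by 0.73 (SE 0.07, adjusted p = 2.93e-06). Thus the same treated cells had less Adamts5 and more Timp3 transcript. In treated Col1a1-miR-29b cells Lrp1 was lower than in treated empty vector cells, at a log2 fold change of −0.34 (SE 0.09, adjusted p = 0.0196). Timp2 was higher there by 0.32 (SE 0.05, adjusted p = 0.00176), and so was Sdc4 of the same list, by 0.20 (SE 0.04, adjusted p = 0.00667).

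Among the proteoglycans cut by ADAMTS proteases or related to them, 7 of 8 genes could be tested. With the empty plasmid Bgn, the small proteoglycan biglycan, rose by a log2 fold change of 0.93 (SE 0.05, adjusted p = 8.53e-09), and Dcn, decorin, fell by 1.11 on the log2 scale (SE 0.22, adjusted p = 0.00446). Vcan, which encodes versican, read 1.66 ± 0.264 CPM without and 2.66 ± 0.331 CPM with TGF-β in empty vector cells and did not pass. Acan, which encodes aggrecan, had at most 15 counts in any library, so the classical aggrecanase substrate was close to undetected. Of 9 microfibril genes, 4 rose with TGF-β under each plasmid. The strongest was Ltbp2, a latent TGF-β binding protein family member that associates with microfibrils, at 2.22 (SE 0.11, adjusted p = 2.54e-09) in empty vector cells, and Fbn1, which encodes fibrillin-1, rose by 0.96 (SE 0.06, adjusted p = 9.36e-08). In treated Col1a1-miR-29b cells 3 of these 9 genes were lower than in empty vector cells, as were 5 of the 6 procollagen genes. Of all genes tested, 7.63% were lower there. The largest fall was that of Col3a1, a chain of type III collagen, at −0.87 (SE 0.11, adjusted p = 0.000449). With CMV-miR-29b and TGF-β 0 genes of either list passed, where 2 of all 21161 genes did. The median log2 fold change of the 6 procollagen genes was −0.34 with CMV-miR-29b and −0.41 with Col1a1-miR-29b.

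**Figure D5:**
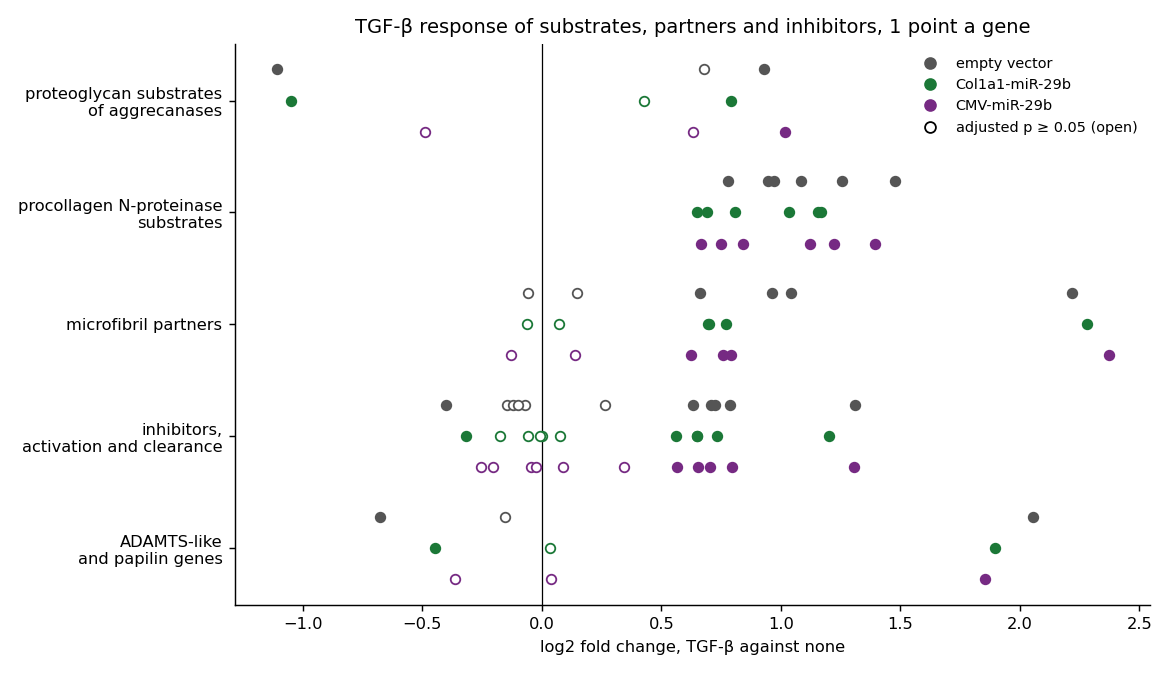
log2 fold change, TGF-β against none, of the listed substrates, partners, inhibitors and ADAMTS-like genes, 1 point a gene and 1 line of points for each plasmid (empty grey, Col1a1-miR-29b green, CMV-miR-29b purple), open where the adjusted p is not below 0.05. Genes with a highest group mean of at least 1 CPM are drawn. All 6 procollagen genes lie right of 0 under each plasmid.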

How the data were processed

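Poly(A) RNA libraries were made with a stranded TruSeq kit. Per the labels and the methods, the authors trimmed reads with cutadapt, aligned them with HISAT2 and assembled them with StringTie. The labels name mm9 and the methods Ensembl release 96; the coordinates of 52506 of 55450 genes, and of 9 of the 10 members, equal those of GENCODE M21 (GRCm38), and the end of Adamts10 differs. How counts were taken, and whether by strand, is not given in the sources used here. The deposited counts are whole numbers per gene, not normalized. The deposited FPKM values, made by the authors, are scaled by transcript length and depth, and 0 is written as 0.0001.

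Groups came from the labels. In each Col1a1-miR-29b group 1 library has a letter in the table that no label carries; its counts could be placed by group (here the unlettered library), and its FPKM column was not used (2 columns in all). Replicate libraries differed by far more than counting noise. Repeat experiments were named by the methods without more detail, so p-values measure the spread between these libraries.

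Counts were fitted with edgeR 4.0.16 (R 4.3.3, TMM, filterByExpr, quasi-likelihood test) as 1 mean per group in all 18 libraries. The p-values were adjusted by Benjamini-Hochberg over 21161 genes. Each SE is the size of the log2 fold change divided by the square root of its F value. It thus restates the test and is no separate measure of precision. Alternatives were DESeq2 1.42.0, limma 3.58.1 on log2(FPKM + 1) and log2(FPKM + 0.1), other scalings and filters, length and GC offsets, a replicate block, and each library left out in turn. The fit was also run on simulated data with a smaller spread between libraries than found here, so its error rate in these data was not tested. Members and lists were chosen with earlier results of these data known. In every comparison between groups 9 members are given by fold change and Adamts16 by its counts, and at most 3 genes past the threshold per other list, by size of change. A floor of 3 counts covers counting error only.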

Additional observations from a re-analysis of the deposited data

How the results depend on the processing

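In 17 comparisons a member passed the threshold; none changed sign under any of its 20 alternatives, and 7 passed under all of them: Adamts5 under each plasmid, Adamts6 under the empty and CMV-miR-29b plasmids, and Adamts9 and Adamts12 under the empty plasmid. For TGF-β in Col1a1-miR-29b cells, 1 of 10 members in place of 3 passed with the replicate block, with limma on log2(FPKM + 1), on log2(FPKM + 0.1) and on the latter with no filter, and without the unlettered libraries, an alternative chosen after seeing the data; in each only Adamts5 passed, and 1.8%, 2.36%, 2.2%, 1.5% and 2.07% of all genes with an adjusted p did. For TGF-β in CMV-miR-29b cells, 7 in place of 4 passed with DESeq2 (7.18% of all genes) and 2 when the groups were compared alone (2.76%). For Col1a1-miR-29b against empty vector with TGF-β, 5 in place of 3 passed with DESeq2 (3488 of 17444 genes), 1 with the groups compared alone (5.63%), with either limma fit that kept the filter (8.28% and 7.71%) and without the unlettered libraries (7.59%), and 0 with the replicate block (5.27%) and with limma without a filter (3.68%). Without TGF-β, 1 in place of 2 passed with DESeq2 size factors (6.57% of all genes), with the loosest filter (2.75%), with the groups compared alone (4.07%) and with length and GC offsets (6.45%), and 0 with the replicate block (0.737%, and 1.04% with these offsets), with limma in all 3 forms (0.968% to 2.27%) and without the unlettered libraries (1.82%). In the comparison of the miR-29b plasmids, 1 in place of 0 passed with DESeq2 at each treatment (7.48% of all genes with and 7.27% without TGF-β), and 1 with length and GC offsets without TGF-β (2.07%). With 1 library left out in turn, the counts ranged from 4 to 5 for TGF-β in empty vector cells (3.3% to 6.5% of all genes), 3 to 3 in Col1a1-miR-29b cells (2.87% to 3.1%) and 3 to 5 in CMV-miR-29b cells (3.3% to 3.99%), from 1 to 4 (5.88% to 14.5%) and 0 to 2 (2.13% to 4.76%) for Col1a1-miR-29b against empty vector with and without TGF-β, and from 0 to 1 (0.278% to 1.95%) for CMV-miR-29b against Col1a1-miR-29b without TGF-β. Other counts stayed within 1.5 times. The FPKM and replicate block fits had 16 libraries; otherwise the cause was not tested. Libraries with the same letter did not deviate together (mean r 0.0051 over 36 pairs, lowest −0.11), so the letters were not taken as pairs. Adamts12 (68 to 293 counts) and Adamts16 (0 to 25 counts) are limited by low counts, and Adamts16 cannot be ranked by fold. Adamts6 had 251 to 1030 counts per library, but its replicates spread widely, from 6.77 to 10.9 CPM in treated Col1a1-miR-29b cells.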

Other observations

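The ADAMTS-like genes encode secreted relatives of the ADAMTS proteases that lack the protease domain, and 4 of the 7 listed ADAMTS-like and papilin genes passed the filter on low counts. Adamtsl3 rose with TGF-β under each plasmid, by a log2 fold change of 2.05 (SE 0.17, edgeR adjusted p = 1.31e-06) in empty vector cells, from 5.60 ± 0.397 to 23.3 ± 5.06 CPM (SD, n = 3), by 1.89 in Col1a1-miR-29b cells and by 1.85 in CMV-miR-29b cells. In treated Col1a1-miR-29b cells it was lower than in empty vector cells by −0.80 (SE 0.17, adjusted p = 0.00582). Adamtsl4, a microfibril-associated relative, fell by 0.68 on the log2 scale (SE 0.11, adjusted p = 0.00136) in empty vector cells and by 0.45 (SE 0.11, adjusted p = 0.0328) in Col1a1-miR-29b cells. Adamtsl2, which binds latent TGF-β binding proteins, had 0 to 4 counts in untreated and 17 to 81 counts in treated empty vector libraries. With so few counts in the untreated group, no fold or test is given for Adamtsl2. The term for a difference in response between plasmids passed for no gene.

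Of the 9 other ADAMTS genes of the table, 3 passed the same filter (Adamts7, Adamts13 and Adamts20). Adamts13 had 3 to 33 counts and Adamts20 0 to 24 counts per library. Adamts3, Adamts15 and Adamts18 had 0 counts in all 18 libraries, which allows up to 3 counts in each, and Adamts8, Adamts17 and Adamts19 had at most 4, 15 and 4 counts. Adamts3, the third procollagen N-proteinase, was thus not detected at this depth in cells in which its relatives Adamts2 and Adamts14 were.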
